A study of Mus musculus with 16 samples.

Results

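Lung metastases and pancreas tumors of pancreatic ductal adenocarcinoma (PDAC) cells in which Smad4 had been restored (Lung_ON and Panc_ON) were compared by chromatin accessibility, with 3 samples in each group out of 16 in the series. The 6 samples were chosen by their organ and Smad4 labels, which number the samples within each group. All carried KC-shSmad4 cells, cell lines from tumors of mice with Ptf1a-Cre, Rosa26 rtTA3-IRES-mKate2 and a doxycycline (Dox)-inducible, GFP-linked shRNA against Smad4 at Col1a1, derived from C57BL/6J;129 embryonic stem cells and marked with firefly luciferase. Ptf1a-Cre acts in the pancreatic lineage, so the constitutive red reporter mKate2 is switched on in pancreatic epithelium and its tumors. Hosts were 6 to 8 week old female Foxn1 nu athymic nude mice, which lack T cells, and all of them were fed Dox while the tumors grew, so that Smad4 was depleted in every group before the switch. Pancreas tumors came from 100000 cells placed in the pancreas and lost Dox after 4 weeks, and lung metastases came from 250000 cells injected into the tail vein and lost Dox after 6 weeks. In the ON groups 60000 mKate2+ cells were sorted 14 days after Dox withdrawal. In Lung_OFF and Panc_OFF, used here for reference with 3 samples each, Dox was never withdrawn. Organ, route and time of growth cannot be told apart, and the cell line behind each sample is not given in the sources used here. Smad4 depletion acts on its RNA, so accessibility does not check the Smad4 labels. At the Smad4 start-site peak the normalized counts were 686, 738 and 683 in Panc_ON and 811, 752 and 844 in Lung_ON, a difference that limma did not call (log2 difference 0.19 ± 0.10 SE, adjusted p = 0.17).

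ATAC-seq reads out open chromatin, since the Tn5 transposase cuts where nucleosomes are displaced, at promoters and at distal enhancers bound by transcription factors. Smad4 is the shared partner of the receptor-regulated Smads and carries TGF-beta and BMP signals to such sites. Its loss is a hallmark of advanced PDAC, a tumor of epithelial origin whose cells can carry ductal, gastric or mesenchymal gene programs. FOX, HNF4, GATA and KLF factors open enhancers of endodermal epithelium, whereas AP-1, RUNX and TEAD factors act at enhancers of many adherent and mesenchymal cells.

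The question was where tumor cells growing in the lungs and in the pancreas differed once Smad4 was back. The deposited values were counts of reads per peak, divided by a factor for each library, over 136630 nuclear peaks combined over all samples. In the 6 samples 22495044 to 37510981 reads fell in nuclear peaks, and 1.55% to 2.17% of the reads in the table lay in the mitochondrial row, which was left out. A peak was called where the log2 difference was at least 0.58 either way with a limma adjusted p of at most 0.1.

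1 pancreas sample stood apart. Panc_ON_1 and Panc_ON_2 resembled each other (Spearman correlation 0.968 across peaks), while Panc_ON_3 had correlations of 0.896 and 0.901 with them and its nearest sample of all 16 was Lung_ON_1 (0.928). Within the calls between lungs and pancreas, Panc_ON_3 lay closer to the mean of Lung_ON than to that of the other pancreas samples at 24.2% of the peaks higher in the lungs and at 39.8% of those lower in the lungs. The labels do not set it apart, so it stayed in its group, and main values are also given without it. No 2 samples were copies: chi-square per degree of freedom between replicates ran from 3.68 to 20.3.

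Accessibility differed widely between the organs. Of the 136630 peaks, 37934 were called (27.8% of all peaks), 17550 of them higher in the lungs (12.8%) and 20384 lower (14.9%). Without Panc_ON_3 the counts were 20406 higher and 22554 lower, and 87.3% of the higher and 93.2% of the lower calls were called again. Without Panc_ON_1 they fell to 11866 higher and 13213 lower. Replicates of Lung_ON and Panc_ON did not overlap at 52230 peaks (38.2% of all), and among the calls this held for 90.6% of the higher and 90.4% of the lower ones.

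The 2 directions were unlike in size. Peaks lower in the lungs had a median log2 difference of −1.82 and 43.1% of them differed at least 4-fold, from a median normalized count of 80.0 in Panc_ON to 17.96 in Lung_ON. Peaks higher in the lungs had a median log2 difference of 1.01, and 2.02% of them reached 4-fold, with medians of 62.2 in Panc_ON and 129 in Lung_ON. For comparison, the median peak had a normalized count of 57.5 over all samples, so the typical lower call was below that level in the lungs, and the typical higher call was above it in both organs.

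Seen sample by sample, the median log2 deviation of the higher calls from the mean of all 16 samples was −0.94, −0.85 and −0.69 in Panc_ON_1 to Panc_ON_3, against 0.01, 0.21 and 0.31 in Lung_ON. In the OFF groups it was −0.22, −0.23 and −0.32 in the pancreas and −0.22, 0.42 and 0.18 in the lungs. At these peaks Panc_ON held the lowest 3 samples of the series. Both sets of peaks had been picked by the difference between Lung_ON and Panc_ON, which by itself favors extreme values in these groups. At the lower calls the medians were 1.69, 1.56 and 0.66 in Panc_ON, with Panc_ON_3 well under the other two, and −0.35, −0.57 and −0.71 in Lung_ON. Panc_OFF lay at 0.76, 0.85 and 1.27 and Lung_OFF at −0.11, −0.83 and −0.34, so the pancreas stood above the lungs at these peaks in both Smad4 states.

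**Figure D1:**
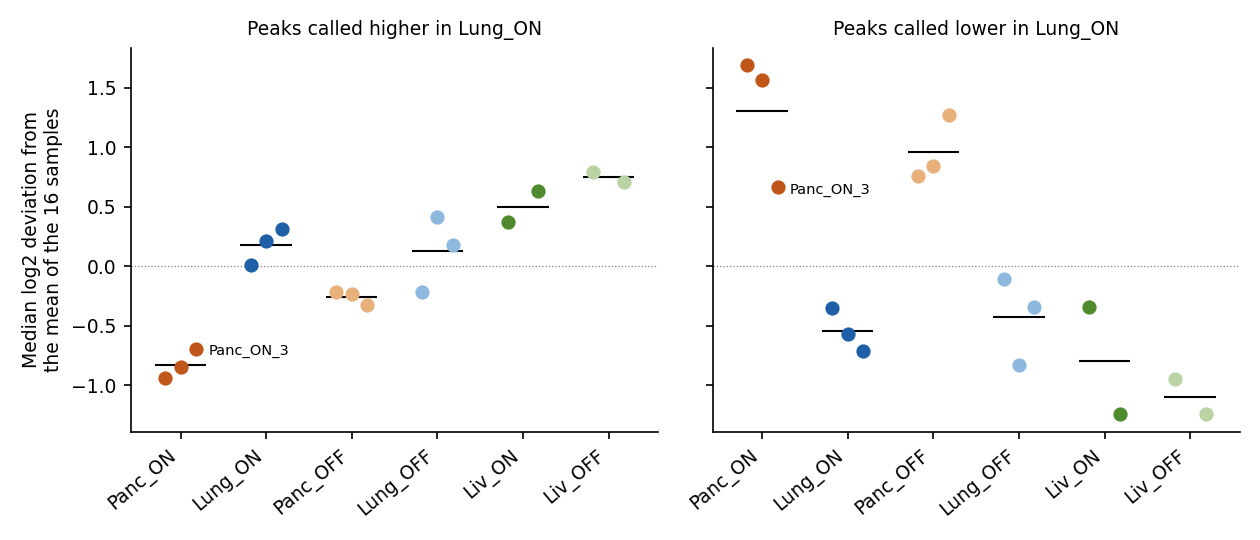
Median log2 deviation from the mean of all 16 samples (y axis) for the 17550 peaks called higher and the 20384 called lower in Lung_ON than in Panc_ON, with 1 point per sample in each of the 6 groups (x axis). Panc_ON sits lowest for the higher calls (−0.94, −0.85 and −0.69), and for the lower calls Panc_ON_3 (0.66) lies below the other Panc_ON samples (1.69 and 1.56). Picking the peaks by Lung_ON against Panc_ON by itself favors extreme values in these groups.

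The strongest single peaks show what these differences look like; each is named for the nearest start site, and an intron here may belong to any annotated transcript. An intronic peak whose nearest start was that of Rassf6, a member of a family of Ras-association proteins (chr5:90624756-90626492, GRCm38), had the smallest p among the higher calls. Its normalized counts were 62.2, 69.3 and 74.3 in Panc_ON and 334, 343 and 495 in Lung_ON (log2 difference 2.47 ± 0.21 SE, limma adjusted p = 0.000146). The groups were far apart, and the value without Panc_ON_3 was 2.53. On the lower side, a peak near Dlx2, a homeobox gene (chr2:71538567-71541661), had 1105, 906 and 320 in Panc_ON and 44.9, 29.7 and 28.9 in Lung_ON (−4.30 ± 0.41, adjusted p = 0.000223). Panc_ON_3 was the lowest of the pancreas samples there, yet still several-fold above every lung sample, and without it the difference was −4.85. At an intronic peak with no start site within 100 kb (chr7:68153258-68153921), which had the smallest p of the lower calls, the counts were 353, 292 and 98.1 in Panc_ON and 4.49, 5.75 and 4.67 in Lung_ON (−5.19 ± 0.44, adjusted p = 0.000146). The lung samples kept little accessibility at either peak.

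The other higher peaks named for their p lay near Snx33, near Hk1, which encodes a hexokinase, and at the promoters of Ffar4, a receptor for fatty acids, and Tmem151a, with log2 differences of 1.83, 1.17, 1.66 and 1.58. At the Ffar4 promoter the counts were 325, 306 and 428 in Panc_ON and 846, 1252 and 1275 in Lung_ON. Among peaks with a mean count of at least 100, the largest log2 differences on the higher side were 3.34 and 3.20, at peaks with no protein-coding start site within 100 kb (chr7:62078179-62078955 and chr2:75285094-75286619) and 3.33 near Adamts3, where Panc_ON_1 had the lowest count, 0.889, against 67.4 to 200 in Lung_ON. Their pancreas counts spread widely around low means, so the fold is loosely fixed. The largest of these on the lower side was −6.24 ± 0.63, in an intron far from any such start (chr13:114010004-114011588), where the counts were 820, 594 and 212 in Panc_ON and 10.1, 1.92 and 6.53 in Lung_ON. All 16 named peaks stayed called in their direction under every setting tried.

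The centers of 5 such peaks, 200 bp each on the plus strand of GRCm38, show the letters behind the motif shares given further down. The Rassf6 sequence belongs to the peak named for its p. The other four were picked after motif shares were known, as called peaks holding an HNF4 match (Trim71 and Tex2, higher in the lungs) or an AP-1 match (Cadm1 and a peak with no start site near, lower in the lungs). Capitals mark matches, on either strand, to HNF4 (CAAAGNNCA), FOX (TGTTTAC) and AP-1 (TGANTCA).
Rassf6, intronic, higher, HNF4, chr5:90625525-90625724: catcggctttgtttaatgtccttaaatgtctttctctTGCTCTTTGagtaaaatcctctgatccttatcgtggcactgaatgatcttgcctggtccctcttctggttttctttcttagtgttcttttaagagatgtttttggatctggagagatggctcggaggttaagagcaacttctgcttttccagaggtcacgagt
Trim71, intronic, higher, HNF4, chr9:114547688-114547887: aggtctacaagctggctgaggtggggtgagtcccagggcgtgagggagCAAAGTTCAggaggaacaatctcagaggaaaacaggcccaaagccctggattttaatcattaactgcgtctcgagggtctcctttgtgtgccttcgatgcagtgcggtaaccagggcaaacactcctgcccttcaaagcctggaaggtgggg
Tex2, intronic, higher, FOX then HNF4, chr11:106555888-106556087: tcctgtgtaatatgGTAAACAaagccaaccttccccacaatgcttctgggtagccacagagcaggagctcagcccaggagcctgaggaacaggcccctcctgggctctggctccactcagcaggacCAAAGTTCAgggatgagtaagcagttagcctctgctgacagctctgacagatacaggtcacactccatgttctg
Intron with no start within 100 kb, lower, AP-1, chr12:71483524-71483723: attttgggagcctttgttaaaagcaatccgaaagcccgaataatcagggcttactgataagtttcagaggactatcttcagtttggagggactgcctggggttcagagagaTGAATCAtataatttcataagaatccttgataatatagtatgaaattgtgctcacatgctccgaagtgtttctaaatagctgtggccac
Cadm1, intronic, lower, AP-1, chr9:47556753-47556952: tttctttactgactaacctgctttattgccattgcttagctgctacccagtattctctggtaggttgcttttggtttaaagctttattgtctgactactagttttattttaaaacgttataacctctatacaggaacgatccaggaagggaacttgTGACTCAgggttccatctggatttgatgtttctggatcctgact

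The Trim71 peak had normalized counts of 61.3, 55.7 and 69.7 in Panc_ON and 275, 211 and 490 in Lung_ON, and the Tex2 peak 536, 469 and 598 against 1012, 1255 and 1348. In both, every lung sample lay above every pancreas sample. The AP-1 peak on chromosome 12 had 410, 392 and 136 in Panc_ON and 16.8, 6.71 and 6.53 in Lung_ON, and the Cadm1 peak 91.6, 128 and 47.5 against 1.12, 3.83 and 3.73. In the lungs both of these peaks had few reads.

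Called peaks lay mostly away from promoters. Peaks within 1000 bp of a protein-coding start made up 10.8% of all peaks, 6.82% of the higher and 3.88% of the lower calls. Put the other way, 8.10% of promoter peaks were higher in the lungs and 5.35% lower, whereas 14.3% and 17.2% of intronic peaks were. Lower calls were also remote, with 29.3% of them over 100 kb from any protein-coding start, compared with 14.7% of the higher calls and 21.0% of all peaks. Width went with direction: the median was 854 bp for higher calls, 536 bp for lower calls and 588 bp for all peaks. Of the peaks of 200 to 373 bp, 4.12% were called higher, and of those of 1063 bp or more, 19.0% were, with 9.42% called lower. On chromosome 19, 23.4% of the 3956 peaks were higher and 6.88% lower (median log2 difference 0.31, the same to 2 decimals without Panc_ON_3), whereas between the OFF groups that median was 0.02. The median log2 deviations there were −0.12, −0.18 and −0.24 in Panc_ON_1 to Panc_ON_3, and 0.01, 0.28 and 0.07 in Lung_ON_1 to Lung_ON_3. Ffar4 and Tmem151a, named above, and Sgms1 and Glis3, named below, lie on this chromosome. The part of its shift in their calls was not tested.

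Epithelial genes leaned to the higher side. Among 231 peaks assigned to 22 epithelial identity genes, which encode junction proteins, keratins and the factors that maintain epithelium, 86 (37.2%) were higher in the lungs and 4 (1.73%) lower, with a median log2 difference of 0.47, compared with 12.8% and 14.9% over all peaks. Without Panc_ON_3 the counts were 87 and 6. The most higher calls fell to Ehf, an epithelial ETS factor (16 of 27 peaks, none lower), Grhl2, a grainyhead factor that drives junction genes (8 of 27), and Epcam, an adhesion molecule (7 of 24). Only Tjp1, the scaffold of tight junctions, had lower calls (4 of 29, with 6 higher). At the Ehf start site the counts were 537, 613 and 610 in Panc_ON and 830, 1169 and 862 in Lung_ON (0.69 ± 0.16, adjusted p = 0.00647).

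Start-site peaks of Cdh1, Krt19 and Elf3 were looked up after their values had been seen. At Cdh1, which encodes E-cadherin, the counts were 3525, 3309 and 4060 in Panc_ON and 6231, 7341 and 6635 in Lung_ON (log2 difference 0.89 ± 0.15 SE, limma adjusted p = 0.000889). At Krt19, a ductal keratin, they were 2629, 2519 and 3966 against 4975, 5358 and 5074 (0.79 ± 0.15, adjusted p = 0.00213). At Elf3, an epithelial ETS factor, they were 1909, 1575 and 1860 against 2887, 3397 and 3169. All 3 promoters were open in both organs, and every lung sample exceeded every pancreas sample. Epcam itself had 416, 407 and 357 against 500, 532 and 398 at its start site and was not called there (0.27 ± 0.19).

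Gastric and mucin genes, a program of the stomach lining that PDAC cells can carry, moved the same way. Of their 98 peaks, 44 (44.9%) were higher and 0 lower in the lungs, with a median log2 difference of 0.76, and without Panc_ON_3 the counts were 46 and 0. Agr2, a chaperone of mucin folding, had 12 of 14 peaks higher, Muc13, a membrane mucin, 5 of 8, and Tff2, a trefoil peptide of gastric mucus, 4 of 4. The Tff2 start site had counts of 80.0, 105 and 116 in Panc_ON and 319, 397 and 619 in Lung_ON (2.10 ± 0.27, adjusted p = 0.000366). The Muc13 start site had 458, 515 and 448 against 907, 1219 and 1460 (1.31 ± 0.22, adjusted p = 0.0011). At both genes every lung sample was above every pancreas sample.

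Endodermal and pancreatic transcription factor loci leaned to the lungs as well. Of 103 peaks of endoderm factors, 33 (32.0%) were higher and 5 lower, led by Hnf4g (11 of 21 peaks), Foxa2, a pioneer factor of endoderm (10 of 22), and Hnf4a (3 of 10). Of 218 peaks of pancreatic lineage factors, 62 (28.4%) were higher and 12 (5.50%) lower, among them Gata4, a factor of endoderm (14 of 26), and the Notch target Hes1 (8 of 32, with 3 lower). Pax6, an islet and eye factor, had 5 of 9 peaks lower. The start-site peak of Gata4 was not called, at 3174, 2590 and 2623 in Panc_ON and 3292, 3370 and 4087 in Lung_ON (log2 difference 0.36). That of Hes1 (0.09) was not called either, so the calls at these genes lay at other peaks. Among KLF factors 39 of 197 peaks (19.8%) were higher and 13 lower, led by Klf3 (10 of 26), Klf5 (6 of 23) and Klf10 (6 of 22). The endoderm count rested on few libraries, with 17 higher without Lung_ON_3 and 19 without Panc_ON_1.

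The loci with the most higher calls were Chn2, a Rac GTPase-activating protein (26 of 45 peaks), Shroom3, which shapes epithelial cells through apical actin (25 of 49), Sgms1, a sphingomyelin synthase (20 of 54, with 2 lower), Wwc1, a scaffold of the Hippo pathway (19 of 27), Glis3, a zinc finger factor of pancreas development (18 of 24), and Pde4d, a cAMP phosphodiesterase (18 of 108, with 13 lower). Shroom3 had start-site counts of 315, 326 and 405 in Panc_ON and 684, 855 and 858 in Lung_ON (1.20 ± 0.18, adjusted p = 0.000662). Glis3 had 1521, 1410 and 1786 against 2632, 3344 and 3184 (0.96 ± 0.11, adjusted p = 0.000287). Calls at Chn2, Shroom3, Wwc1 and Glis3 all went 1 way. The ranking follows the number of calls, which favors genes with many peaks, and over all peaks 12.8% were higher and 14.9% lower. Pde4d was mixed, with a median log2 difference of 0.07 over its peaks.

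Mesenchymal genes stood on the other side. Of 200 peaks of 17 genes linked to epithelial-mesenchymal transition (EMT), 73 (36.5%) were lower in the lungs and 7 higher, with a median log2 difference of −0.57, and without Panc_ON_3 the counts were 79 and 9. Prrx1, a homeobox factor of mesenchyme, had 13 of 18 peaks lower, Tnc, the matrix glycoprotein tenascin C, 12 of 29, and Postn, the matrix protein periostin, 8 of 8. At the Prrx1 start site the counts were 1019, 885 and 340 in Panc_ON and 146, 163 and 208 in Lung_ON (−1.98 ± 0.49, adjusted p = 0.0083). At Sparc, which encodes a collagen-binding matrix protein, they were 1205, 1019 and 479 against 264, 310 and 365 (−1.43 ± 0.31, adjusted p = 0.00393). Panc_ON_3 lay between the groups at both genes, without overlapping the lungs. Twist2, an EMT factor, went against the list, with 5 of 19 peaks higher and none lower. The start sites of Vim (−0.33) and Zeb1 (0.15), an intermediate filament gene and an EMT repressor, were not called. The lower count was 48 without Panc_ON_1.

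Matrix genes shared this direction. Of 330 collagen peaks, 128 (38.8%) were lower and 28 (8.48%) higher, with 141 and 28 without Panc_ON_3 and 17 higher without Panc_ON_1. All 20 peaks of Col8a1 were lower, as were 13 of 26 at Col5a1 and 11 of 14 at Col1a2, chains of short-chain and fibrillar collagens. Col18a1, whose product sits in basement membranes, instead had 10 of 33 peaks higher and 3 lower. The Col8a1 start site had 998, 789 and 518 in Panc_ON and 322, 240 and 285 in Lung_ON (−1.40 ± 0.28, adjusted p = 0.0023). At Col3a1, looked up after its values had been seen, the counts were 383, 343 and 130 against 27.0, 60.4 and 23.3 (−2.90 ± 0.64, adjusted p = 0.00448). Of 193 peaks of matrix proteases and their inhibitors, 63 (32.6%) were lower and 27 (14.0%) higher. Timp3, an inhibitor of metalloproteases, had 16 of 27 lower, Adamts2, which trims procollagen, 11 of 13, and Adamts12 8 of 10, whereas Adamts15 had 10 of 12 higher. Laminins split by gene: Lama4, a laminin chain of vessels and mesenchyme, had 8 of 9 peaks lower, and Lama5, of epithelial basement membranes, 5 of 8 higher, with start-site counts of 4405, 4683 and 6147 in Panc_ON and 7971, 8120 and 8988 in Lung_ON.

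Markers of fibroblasts, cells that express many of these genes, moved with them. Of 87 peaks at 8 fibroblast genes (Pdgfra, Pdgfrb, Dcn, Lum, Thy1, Fap, Pdpn and Dpt), 44 were lower and 6 higher, and all 7 start-site peaks present were called lower; Thy1 had none. The summed normalized count over the 87 peaks was 14646, 13186 and 9845 in Panc_ON and 6470, 7200 and 6790 in Lung_ON, while Panc_OFF ranged from 9746 to 13024 and Lung_OFF from 6226 to 8399. At Lum, a collagen-binding proteoglycan, the start-site counts were 185, 194 and 62.9 in Panc_ON and 5.62, 7.67 and 1.87 in Lung_ON (−4.59 ± 0.65, adjusted p = 0.000472). Cells had been sorted for mKate2, a tumor cell reporter. Whether fibroblasts in the sort or fibroblast genes open in tumor cells gave these reads cannot be told apart in bulk, and their part in the EMT, collagen and protease counts was not tested. Start-site peaks of defining markers of lung epithelium (Sftpc, Sftpb, Scgb1a1), acinar cells (Cpa1, Prss1), islets (Ins1, Ins2), macrophages (Adgre1, Spi1) and lymphocytes (Cd3e, Cd3d) were not among the peaks, whereas other markers had one. For lung epithelium 4 of 10 genes did, with 1 called higher (Napsa, whose single peak was also called higher with Smad4 off), and their summed start-site counts were 1222 to 1458 in Panc_ON and 1419 to 1641 in Lung_ON. For acinar cells 2 genes had a start-site peak, 1 of them higher (350 to 467 against 401 to 475), and for myeloid cells 4, with 1 higher and 1 lower (1297 to 1573 against 1504 to 1668). These sums overlapped between the groups. Summed counts at endothelial genes overlapped, at 13654 to 15518 in Panc_ON and 13170 to 14566 in Lung_ON, as did those at myeloid genes (4213 to 5143 and 4748 to 5126), while those at mesothelial genes were 2132 to 2995 in Panc_ON and 3735 to 4243 in Lung_ON, with 2 of 16 peaks higher. Islet genes had 15 of 32 peaks higher, 14 of them at the neuroendocrine gene Chga, and summed counts of 3305 to 4797 in Panc_ON and 5687 to 7305 in Lung_ON, and acinar genes had 7 of 38 higher and 4 lower, with 4629 to 5697 and 5887 to 6408. The part of these lists in the endoderm and pancreatic lineage counts was not tested. Higher and lower counts were 5 and 4 of 37 peaks for lung epithelium, 3 and 7 of 44 for myeloid cells, 9 and 11 of 75 for endothelium, 4 and 5 of 33 for hepatocytes, 0 and 0 of 7 for lymphoid cells and 0 and 0 of 9 for erythroid cells and platelets.

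**Figure D2:**
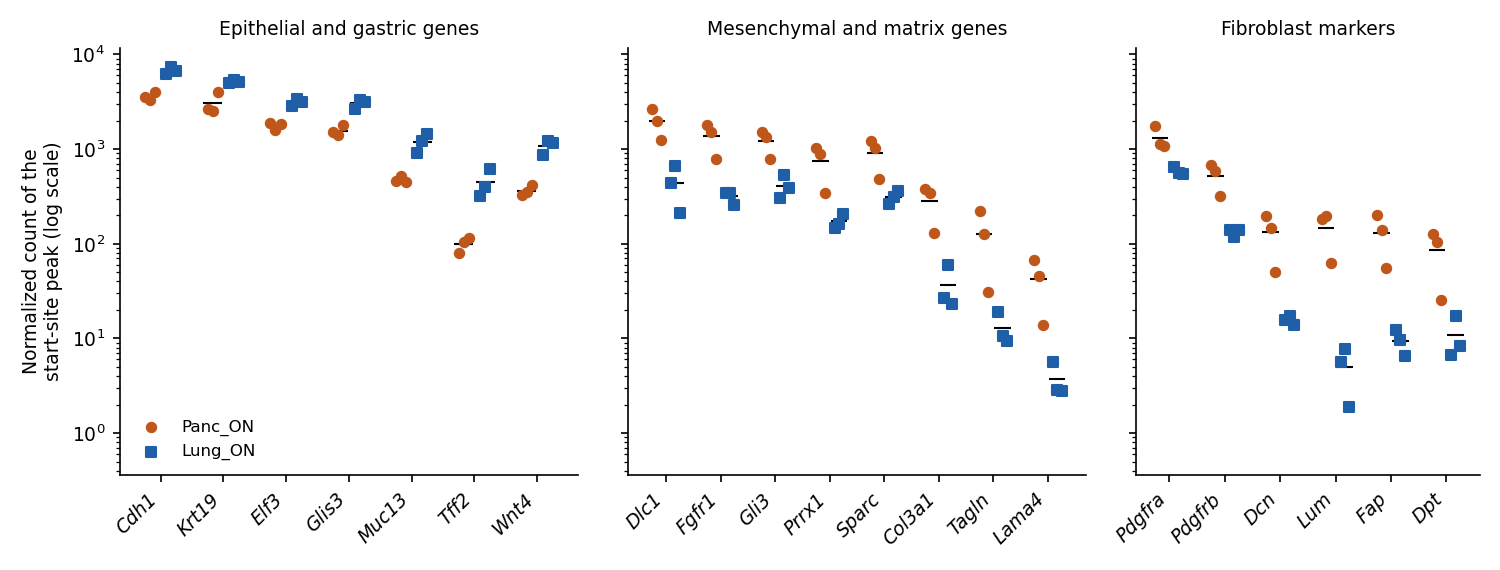
Normalized count of the start-site peak (y axis, log scale) of 21 genes (x axis) in each Panc_ON and Lung_ON sample, with bars at the group means, for epithelial and gastric genes, mesenchymal and matrix genes, and fibroblast markers. Lung samples lie above pancreas samples for genes such as Cdh1 (6231 to 7341 against 3309 to 4060) and below them for genes such as Lum (1.87 to 7.67 against 62.9 to 194).

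The loci with the most lower calls were Tcf4, a bHLH factor (31 of 53 peaks, with 1 higher), Dlc1, a GTPase-activating tumor suppressor (29 of 34), Adgrl2, an adhesion receptor (26 of 30), Zbtb20, a zinc finger repressor (23 of 55, with 3 higher), Foxp1, a forkhead repressor (21 of 92, with 17 higher), and Palld, an actin crosslinker (21 of 55, with 5 higher). Dlc1 had start-site counts of 2635, 1987 and 1260 in Panc_ON and 442, 662 and 209 in Lung_ON (−2.25 ± 0.32, adjusted p = 0.000491). At Adgrl2 they were 1989, 1504 and 829 against 432, 388 and 209 (−2.04 ± 0.36, adjusted p = 0.00122). Tcf4 was not called at its start-site peak (−0.25), so its calls lay at other peaks of the locus. Foxp1, ranked here by its many peaks, was mixed, with a median log2 difference of −0.05 over them. Counted by gene, 9923 of 17796 genes with a peak had at least 1 call, of which 4018 had only higher, 3381 only lower and 2524 both.

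Signaling genes had calls in both directions. Of 649 peaks of the TGF-beta superfamily, the signals that act through Smad4, 84 (12.9%) were higher and 104 (16.02%) lower, close to the shares of all peaks, with a median log2 difference of −0.06. Without Panc_ON_1 both counts were 60. Among ligands, Tgfb3 had 10 of 15 peaks lower, Tgfb2 6 of 15 lower and the latency protein Ltbp1 9 of 49 lower with 5 higher. Among intracellular members, Smad3 had 11 of 27 peaks higher and 1 lower, and the targets Id2 and Tgif1 6 of 22 and 6 of 24 higher with 1 lower each. The start sites of Smad3 (0.24), Id2 (−0.03) and Tgfb3 (−0.29) were not called, whereas that of Ltbp1 was, at 1649, 1370 and 1068 in Panc_ON and 838, 816 and 795 in Lung_ON (−0.72 ± 0.14, adjusted p = 0.00208).

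Cytostatic and fibrogenic Smad4 effectors, 8 genes that the study picked from these samples and so no independent evidence of direction, had 87 peaks, with 15 (17.2%) lower and 6 (6.90%) higher. Without Panc_ON_3 these were 21 and 7. Has2, a hyaluronan synthase, had 6 of 18 lower and 2 higher, the secreted factor Ccbe1 3 of 17 lower, the integrin chain Itga5 2 of 8 lower, the inhibitor of differentiation Id1 2 of 6 higher with 1 lower, and the cytokine Il11 1 of 2 higher. No start-site peak of these genes was called. At Has2 it had 3092, 2480 and 2096 in Panc_ON and 1870, 2115 and 1644 in Lung_ON (−0.43 ± 0.13), and at Id1 4074, 3685 and 3950 against 5019, 5195 and 5423 (0.42 ± 0.10), both under the fold required.

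Within the MAPK list, 64 of 372 peaks (17.2%) were higher and 49 (13.2%) lower, with 42 higher without Lung_ON_3, and the FGF receptors were opposed. Fgfr2, the receptor form of epithelium, had 15 of 24 peaks higher and none lower, a count of 8 without Panc_ON_3. Fgfr1, the form typical of mesenchyme, had 13 of 18 lower and none higher, with start-site counts of 1798, 1499 and 788 in Panc_ON and 347, 347 and 256 in Lung_ON (−2.03 ± 0.40, adjusted p = 0.00217). In the Hedgehog pathway 19 of 133 peaks (14.3%) were higher and 32 (24.1%) lower: the ligand genes Shh and Ihh had 7 of 20 and 5 of 6 higher, and the transcription factors Gli3 and Gli2 17 of 19 and 7 of 26 lower. At the Ihh start site the counts were 299, 340 and 448 in Panc_ON and 760, 765 and 893 in Lung_ON, and at Gli3 1517, 1343 and 786 against 307, 534 and 388. In both loci the groups did not overlap.

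Wnt genes had 86 of 547 peaks (15.7%) higher and 101 (18.5%) lower. The ligand Wnt4 had 10 of 16 higher, the ubiquitin ligase Rnf43, which removes Frizzled receptors, 13 of 15, and the factor Tcf7l2 12 of 52 with 5 lower. The receptor Ror2 had 18 of 21 lower, Lrp6 8 of 21 and Tcf7l1 7 of 17. Start-site counts at Wnt4 were 331, 350 and 413 in Panc_ON and 868, 1234 and 1168 in Lung_ON (1.57 ± 0.23, adjusted p = 0.000507), and at Ror2 494, 311 and 129 against 66.3, 35.5 and 31.7 (−2.65 ± 0.46, adjusted p = 0.00114). Axon guidance genes had 70 of 504 (13.9%) higher and 101 (20.0%) lower, and Slit2, Sema5a and Sema7a, secreted or membrane guidance cues, 12 of 15, 11 of 14 and 9 of 18 lower. Chemokines and cytokines had 42 of 241 (17.4%) higher and 35 (14.5%) lower, with Cxcl5, which attracts neutrophils, at 8 of 19 higher and Cxcl14 at 7 of 9 lower. The lower count without Panc_ON_1 was 65 for Wnt and 63 for axon guidance genes.

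Transcription factor families differed too. RUNX loci had 26 of 112 peaks (23.2%) lower and 6 higher, with Runx1 at 14 of 54 and Runx2 at 7 of 25, although the Runx1 start site was not called (−0.07 ± 0.09, adjusted p = 0.604). ETS loci had 49 of 221 (22.2%) lower and 20 (9.05%) higher: Etv4 and Etv5, outputs of MAPK signaling, had 8 of 14 and 7 of 13 lower, and Ets1 8 of 31, whereas Ets2 had 7 of 27 higher. YAP and TEAD genes had 43 of 211 (20.4%) lower and 18 (8.53%) higher, with Tead1 at 9 of 47 and Wwtr1, which encodes TAZ, at 7 of 22 lower. AP-1 loci had 25 of 108 (23.1%) higher and 12 (11.1%) lower, with Maff and Fosl2 at 5 of 7 and 5 of 20 higher and Jun at 6 of 20 lower. The lower count fell to 14 for RUNX without Lung_ON_3, with 16 without Panc_ON_1, and to 30 for ETS without Panc_ON_1.

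The remaining lists are set beside the shares of all peaks, 12.8% higher and 14.9% lower. Higher and lower counts were 27 and 35 of 173 (15.6% and 20.2%) for lung lineage factors and 62 and 70 of 415 (14.9% and 16.9%) for integrins and laminins. They were 37 and 38 of 290 (12.8% and 13.1%) for nuclear receptors and 18 and 18 of 148 (12.2% each) for cell cycle regulators. For interferon and antigen presentation they were 27 and 15 of 173 (15.6% and 8.67%), and for SOX factors 8 and 13 of 99 (8.08% and 13.1%). Basal and squamous genes had 12 and 5 of 91 (13.2% and 5.49%), and Hox genes 5 and 7 of 52 (9.62% and 13.5%). Loci of lung lineage factors were therefore not among the groups with a high share of higher calls. Among nuclear receptors Pparg, a regulator of lipid genes, had 9 of 27 peaks higher and none lower.

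Across 25 settings of the fit and thresholds, the share of higher calls exceeded that of all peaks in every setting for the epithelial, gastric, endoderm, pancreatic lineage, KLF and AP-1 lists. It also did so for the MAPK, Wnt and chemokine lists. The share of lower calls did so for the EMT, collagen, protease, RUNX, ETS, Hedgehog and YAP and TEAD lists. Lower calls also did so for the Smad4 effector, integrin and laminin, Wnt, axon guidance and lung lineage lists, so Wnt genes passed in both directions. Assigning each peak to the nearest start of any annotated gene, noncoding genes included, cut the number of peaks in the lists. The same side was kept by the epithelial (41.9% of 117 peaks higher), gastric (45.7% of 70 higher), EMT (44.3% of 79 lower) and collagen lists (37.8% of 164 lower). The Smad4 effector list did not keep it, with 3 of 34 peaks (8.82%) lower and 3 higher, against 14.9% lower over all peaks.

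**Figure D3:**
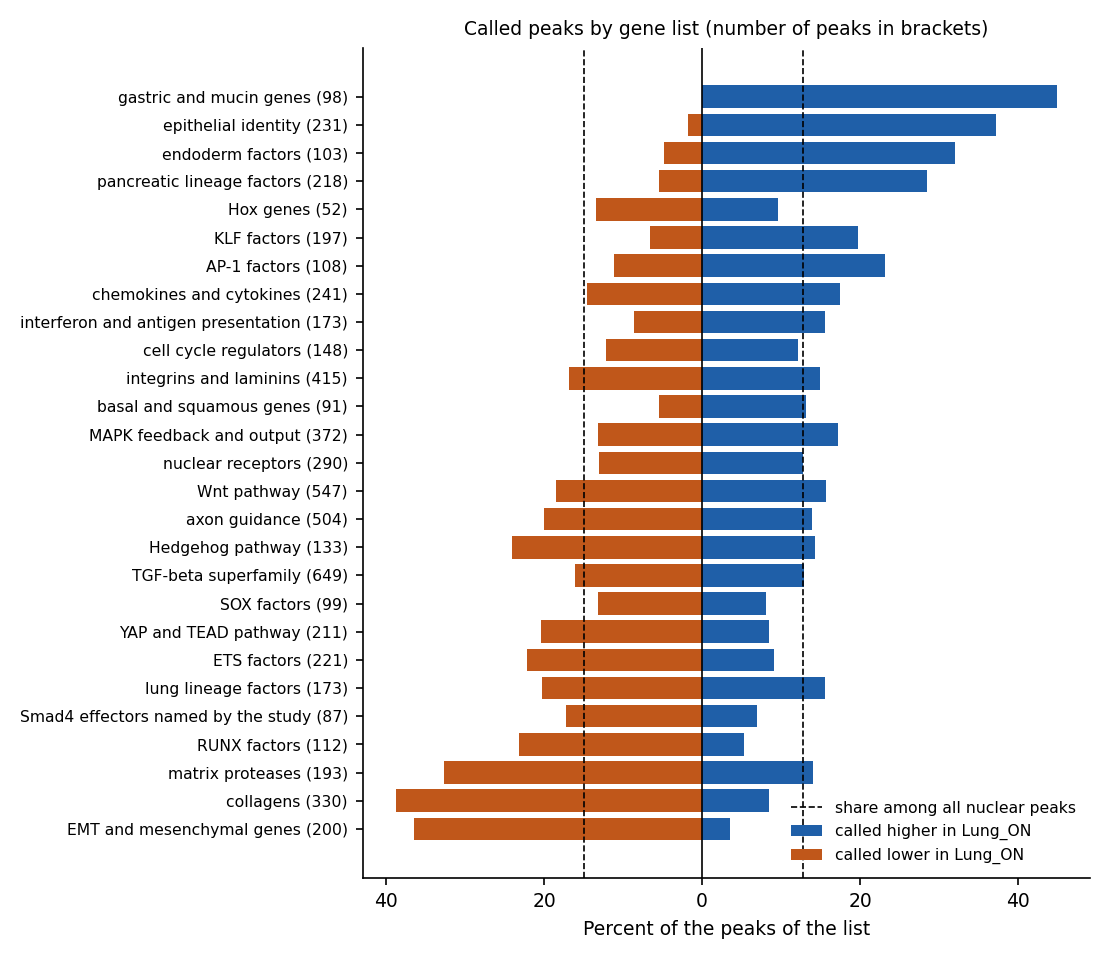
Percent of each list's peaks called higher and called lower in Lung_ON than in Panc_ON (x axis), with 1 line per gene list (y axis) ordered by the median log2 difference and dashed lines at the shares of all peaks (12.8% and 14.9%). Gastric and mucin genes have 44.9% higher and 0% lower, and collagens 8.48% higher and 38.8% lower.

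The same contrast with Smad4 still off shared no sample with the ON groups. Lung_OFF and Panc_OFF differed at 23685 peaks (17.3% of all), 9006 higher in the lungs and 14679 lower, a count that was 11697 without Panc_OFF_3 and 14590 without Panc_OFF_2. The log2 differences of the ON and OFF contrasts correlated across the 136630 peaks with Pearson r of 0.706, and 0.756 without Panc_ON_3, as a description, since peaks are not independent.

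Peaks lower in the lungs largely recurred. Of the 20384, 11378 were also called lower between the OFF groups, which is 55.8% of the ON calls and 77.5% of the OFF calls, 93.2% had the same sign and 30 were called the opposite way. Their median log2 difference was −1.82 with Smad4 restored and −1.34 with Smad4 off. Peaks higher in the lungs recurred at a smaller share: 3674 of 17550 were also called with Smad4 off (20.9% of the ON and 40.8% of the OFF calls), 85.4% had the same sign, and the median was 1.01 with Smad4 restored and 0.41 with Smad4 off. The peaks had been picked by the ON contrast, which by itself favors larger values there.

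The difference between the contrasts was tested as an interaction, which limma called at 0 peaks (0% of all), with 14973 peaks at an unadjusted p under 0.05. edgeR also called 0, with 17125 at an unadjusted p under 0.05, whereas DESeq2 called 2255, of which 1580 were positive. Without Lung_OFF_2 limma called 4000, and without Lung_ON_1 and Panc_OFF_1 4 and 1. No gene is therefore called different between the Smad4 states here, and the values are given side by side. The Tff2 start site had a log2 difference of 2.10 with Smad4 restored and 0.24 with Smad4 off (interaction adjusted p = 0.231), and Wnt4 1.57 and 0.04 (0.231). At the Pparg start site the differences were 0.77 and −0.20 (0.229), and at that of Irf8, an interferon-regulated factor of myeloid cells, −1.24 and 1.59 (0.229). Irf8 counts were 175, 154 and 323 in Panc_ON and 138, 62.3 and 75.6 in Lung_ON, and without Panc_ON_3 its ON difference was −0.91 (adjusted p = 0.0656)

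Several start sites lower in the lungs had values of the same sign in both states. At Lum the log2 difference was −4.59 with Smad4 restored and −4.68 with Smad4 off, at Sema5a −3.02 and −3.30, at Dlc1 −2.25 and −1.85, and at Sparc −1.43 and −1.34. Vim did not follow, with 5 of 9 peaks lower and 0 higher with Smad4 restored and 0 lower and 1 higher with Smad4 off. Muc13 was called in both, at 1.31 and 1.18. By list, the OFF contrast called 46 of 200 EMT peaks lower and 7 higher, and 107 of 330 collagen peaks lower and 7 higher. It called 20 of 231 epithelial peaks higher and 4 lower, and 18 of 98 gastric peaks higher and 1 lower. Over all 136630 peaks it called 9006 higher and 14679 lower. The epithelial share of higher calls was thus closer to that of all peaks than with Smad4 restored, where 86 were higher.

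**Figure D4:**
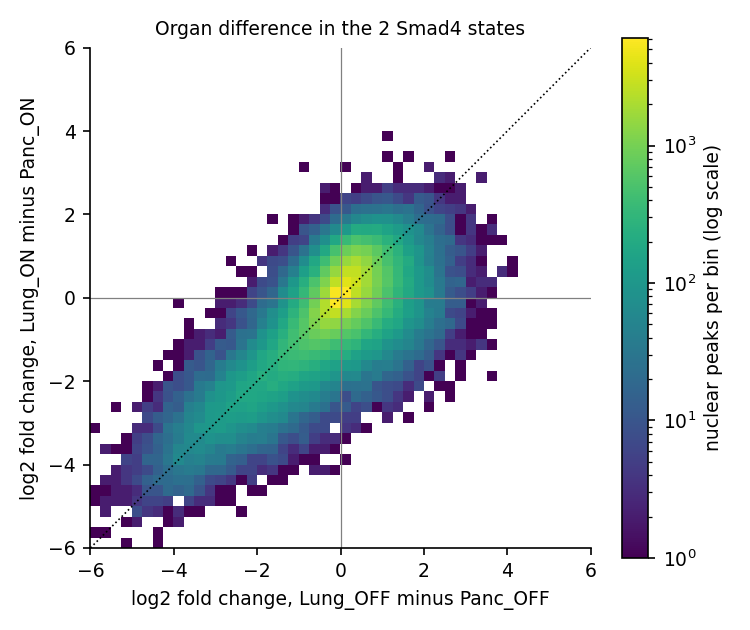
Log2 difference between lungs and pancreas with Smad4 off (x axis) against that with Smad4 restored (y axis) for 136630 peaks, as a density of peaks per bin, with values beyond ±6 drawn at the edge. Peaks follow a common direction (Pearson r 0.706).

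Motif letters were searched on either strand in the 200 bp at the middle of each peak, since called peaks differ in width. A FOX match was present in 4.41% of all peaks, 6.22% of the higher and 2.43% of the lower calls, the motif of GATA factors (AGATAAG) in 3.61%, 5.30% and 2.19%, and HNF4 in 6.50%, 9.81% and 4.57%. These are motifs of endodermal factors, and in each the higher calls exceeded and the lower calls fell short of all peaks. The same order held for KLF (CCACNCCC; 7.69%, 10.3% and 5.42%) and for the E-box CACCTG, read by ZEB, SNAI and some bHLH factors (13.0%, 16.7% and 7.25%). Over the whole peak these 5 motifs kept that order, with FOX in 14.1%, 21.3% and 8.85% and HNF4 in 21.2%, 32.5% and 15.1%.

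Other motifs ran the opposite way in the central 200 bp. AP-1 was present in 28.1% of all peaks, 19.7% of the higher and 31.4% of the lower calls, RUNX (TGTGGTT) in 7.91%, 6.51% and 10.1%, the E-box CAGCTG in 12.3%, 11.98% and 17.0%, and SMAD (CCAGACA) in 4.75%, 4.26% and 6.01%. TEAD (ACATTCC) was above all peaks in both directions, at 4.90%, 5.25% and 6.13%. Within bins of base composition the AP-1 order was the same: in the GC bin with the lowest GC content the shares were 35.6%, 21.9% and 36.5%, in the middle bin 30.1%, 20.8% and 31.2%, and in the highest 18.7%, 16.7% and 24.1%. Without Panc_ON_3 the AP-1 shares came closer, at 24.7% of the higher and 29.1% of the lower calls. Over the whole peak AP-1 was in 51.4% of all, 48.5% of the higher and 54.4% of the lower calls, and that order turned without Panc_ON_3 (55.7% and 52.0%). For RUNX, the E-box CAGCTG and SMAD the whole peak already gave the reverse order of higher and lower calls, at 22.8%, 26.1% and 23.9% for RUNX, 35.4%, 42.6% and 38.97% for the E-box and 17.3%, 21.5% and 16.9% for SMAD. A match of letters is not evidence of binding.

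**Figure D5:**
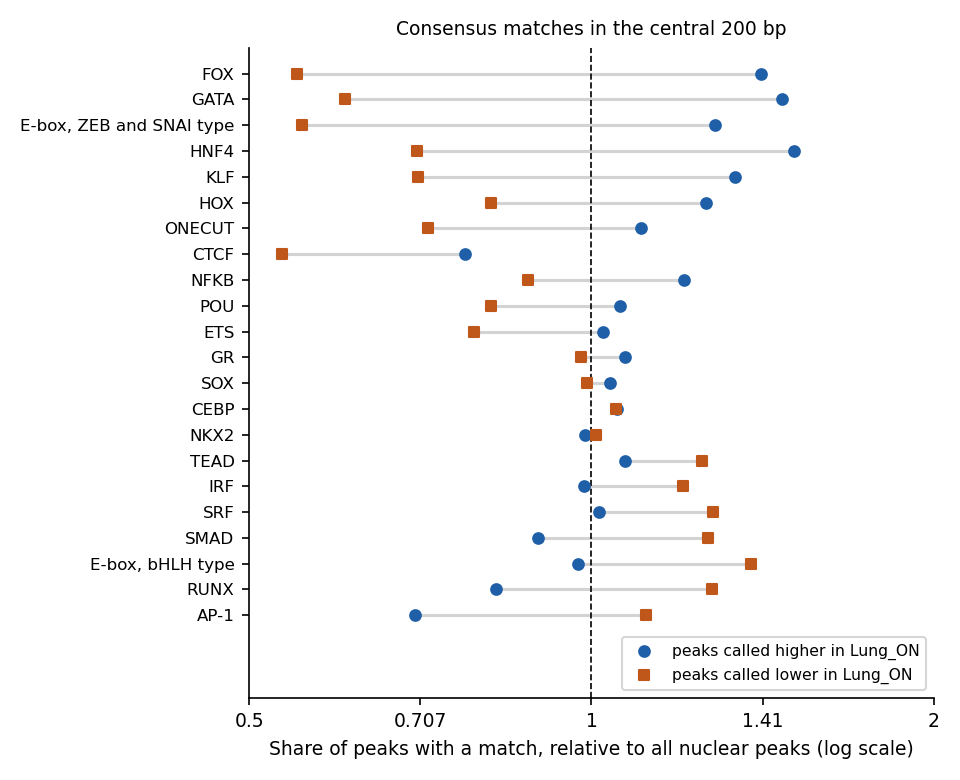
Share of called peaks with each motif in their central 200 bp, as a ratio to the share in all peaks (x axis), for peaks higher and lower in Lung_ON than in Panc_ON, with 1 line for each of 22 motifs, all held by at least 1% of peaks (y axis; the E-box of ZEB and SNAI type is CACCTG and that of bHLH type CAGCTG). FOX lies at 1.41 for higher and 0.551 for lower calls, and AP-1 at 0.700 and 1.12.

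Few broad regions moved as a whole. Of 518 windows of 5 Mb with at least 30 peaks, 11 had a median log2 difference of at least 0.58 either way, 10 of them lower in the lungs. The lowest, on chromosome 3 from 45 to 50 Mb (38 peaks), stood at −1.41, and at 0.19 with Smad4 off. The higher window lay on chromosome 3 from 70 to 75 Mb, at 0.64, and at 0.52 with Smad4 off. A block of distal chromosome 6 (2411 peaks) was raised in Lung_OFF_1 (median log2 deviation 1.85) and less so in Panc_ON_3 (0.44), Lung_OFF_2 (0.40) and Lung_ON_1 (0.28), and without it 37867 peaks were called.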

How the data were processed

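ATAC-seq was measured in 16 samples, and the table of 136631 rows (136630 nuclear peaks and a mitochondrial row) was used. Per the labels and methods, the authors trimmed reads (Trim Galore with cutadapt), mapped them with Bowtie2 (mm10), took peaks from MACS2, combined nearby peaks over samples, counted reads with featureCounts and normalized with DESeq2. FastQC 0.11.5 is named in the submitters' processing notes. The deposited values are thus a signal, read counts divided by a size factor for each library. Dividing by the smallest step gave whole reads for 100% of the values (tolerance 0.1). Treatment of duplicates, the Tn5 offset and the filter applied to the table are not given in the sources used here. Lung columns of the table name day 15 where the labels give 14 days.

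Log2(signal + 1) was fitted with limma 3.58.1 (trend, robust; R 4.3.3) on the means of 6 groups over all 16 samples, with Benjamini-Hochberg adjustment over the 136630 nuclear peaks. A log2 difference is on that scale, which understates low peaks. A call needed a log2 difference of at least 0.58 and adjusted p of at most 0.1. edgeR 4.0.16 (quasi-likelihood) and DESeq2 1.42.0 on recovered reads, TMM factors, quantile normalization, GC correction, a replicate block, a pseudocount of 10, a minimum mean of 20, only the groups compared, stricter thresholds and each left-out sample were alternatives. Leaving out distal chromosome 6 was planned, and assigning peaks to all annotated genes was chosen after the data were seen. The fit was tested first on simulated data with 50 peaks changed at each size and direction. It recovered 22% of 2-fold increases and 14% of 2-fold decreases. At 4-fold it recovered 82% and 78%, with 10 unchanged peaks called. Far fewer peaks were changed there than were called between Lung_ON and Panc_ON. The labels give replicates only a number, while the study states that each sample of its ATAC-seq heat map was a separate mouse. Nothing in the sources used here says that the mice received separate cell cultures. The p-values therefore measure the spread between these samples only.

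Peaks went to the nearest start of a protein-coding transcript (GENCODE vM21, GRCm38) within 100 kb, and a start-site or promoter peak lies within 1000 bp. The members and gene lists were chosen with earlier results of these data known. Named peaks were the 5 of smallest p in each direction with replicates that do not overlap and the 3 of largest fold with a mean of at least 100. Named loci were the 6 genes with most calls in each direction, and named list genes the 3 with most calls in each direction. Sequences are the central 200 bp of called peaks. Motifs were also searched over whole peaks, and the central 200 bp, planned as the alternative to them, is reported first. Some items that these rules name are not reported here.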

Additional observations from a re-analysis of the deposited data

How the results depend on the processing

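Calls between Lung_ON and Panc_ON numbered 37934 in the reported fit. With thresholds of 1 (log2) and 0.05 they were 22231 (7551 higher, 14680 lower) and those between the OFF groups 13882. Leaving out 1 sample gave 25079 (without Panc_ON_1, with 13213 lower) to 42960 (without Panc_ON_3) calls, and 11697 to 27187 between the OFF groups. The interaction was called at 0 to 4000 peaks when 1 sample was left out, at 2255 by DESeq2 and at 1 with quantile normalization. Counts for Lung_ON against Panc_ON were 38933 by DESeq2, 37771 by edgeR, 38074 with TMM factors, 38838 with GC correction, 36314 with only the groups compared, 37745 with a pseudocount of 10 and 32814 of 109763 peaks with a mean of at least 20. Quantile normalization gave 44380, of which 56.8% were higher in the lungs instead of 46.3%, with a median log2 difference over all peaks of 0.11.

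With the replicate block 38683 peaks were called between Lung_ON and Panc_ON, 24534 between the OFF groups and 0 for the interaction, and 39473 with GC correction and block together. The deviations of same-numbered Lung_ON and Panc_ON samples correlated at −0.16, −0.01 and −0.02, so the numbers do not pair them. Those of same-numbered Lung_ON and Lung_OFF samples went together (0.49, 0.12 and 0.21), while those of Panc_ON and Panc_OFF did not (−0.33, 0.03 and −0.33). Of the list counts, 139 of 756 values moved by over 1.5 times in settings other than leaving out a sample, and 53 of 648 when a sample was left out. Higher calls outnumbered lower ones with quantile normalization, with GC correction (50.9% higher) and with a minimum mean of 20 (52.0%), unlike in the reported fit. The precision is limited by 3 samples a group and by Panc_ON_3.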
